A study of Mus musculus with 22 samples.

Results

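The genes of the pre-B cell receptor, of the B cell receptor it precedes and of their first signalling steps were examined in sorted mouse bone marrow. The set held 9 genes, Vpreb1, Vpreb2, Vpreb3, Igll1, Cd79a, Cd79b, Blk, Blnk and Dntt, and every probe set that the tables of the arrays MOE430A and MOE430B assign to one of these symbols was taken. That gave 12 of the 45037 probe sets of both chips, all on MOE430A. Of these, 11 name 1 member gene each and 1 names both Vpreb1 and Vpreb2, so 8 of the 9 genes had a probe set of their own and Vpreb2 had none. All 12 had a signal over 100 on at least 2 of the 11 RNA samples, the filter set for testing.

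A B cell precursor that has joined its heavy chain gene segments places the heavy chain on its surface together with a surrogate light chain, made of a VpreB protein and the lambda5 protein that Igll1 encodes. Cd79a and Cd79b encode the Ig-alpha and Ig-beta chains, which carry the signal inward from this pre-B receptor and, later, from the B cell receptor with its true light chain. Kinases such as Blk and the adaptor Blnk act next, while Dntt encodes terminal deoxynucleotidyl transferase, which adds untemplated bases at the joints of rearranging antigen receptor genes. In bone marrow the surrogate light chain and Dntt are known for early precursors, whereas Cd79a and Cd79b stay on through the B lineage.

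The cells had been stained for CD45, the phosphatase of white blood cells, and for Sca1, and the run records give CD45 as the first sign and Sca1 as the second. The OGCsort set held 3 samples each of CD45-negative, Sca1-negative cells (-/-), CD45-positive, Sca1-negative cells (+/-) and CD45-positive, Sca1-positive cells (+/+). A second set, CPGSE, held 2 samples of +/+ cells sorted on a Moflo. The submitters estimated the purity at 90% for OGCsort and at 95% to 98% for CPGSE. Strain, age, genotype and treatment are not given in the sources used here, and nothing there says that samples came from separate animals, so p-values measure the spread between these samples, which may be technical.

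Ptprc, which encodes CD45, had signals of 1167, 279 and 153 in -/- samples 4, 5 and 8, and between 7366 and 14639 in the 8 CD45-positive samples. Every -/- sample was below every CD45-positive sample, and the tables name no probe set for Ly6a, the Sca1 gene, alone. The -/- samples were rich in erythroid genes, with a summed signal of 9 erythroid markers of 210485 to 324668 against 4723 to 11302 in the other samples. On MOE430A, 63.9% to 71% of the probe sets of each sample had a signal over 100. Arrays were put into groups, called wash runs here, by gaps of over 60 minutes between recorded hybridization times. On MOE430A this gave 3 runs. The first held the CPGSE samples alone and the second all -/- samples with OGCsort +/+ samples 1 and 5. The third held all +/- samples with OGCsort +/+ sample 6. On MOE430B the CPGSE samples were again alone in the first, +/- sample 1 was alone in the third and all others were in the second.

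Promoters were available for 7 of the 9 genes, from RefSeq on GRCm38.p6, as 300 bases around a start listed for each gene. For Vpreb2 and Vpreb3 this window lies inside the span of the gene given here, so it need not be the promoter of every transcript. Those of Vpreb1, Igll1, Cd79a and Dntt are shown because these genes stand for the surrogate light chain, the signalling chains and the transferase. Capitals mark matches to the E-box letters CAGNTG, which E proteins of the B lineage are known to bind, searched on both strands.
Vpreb1, chr16:16869206-16869505, minus strand: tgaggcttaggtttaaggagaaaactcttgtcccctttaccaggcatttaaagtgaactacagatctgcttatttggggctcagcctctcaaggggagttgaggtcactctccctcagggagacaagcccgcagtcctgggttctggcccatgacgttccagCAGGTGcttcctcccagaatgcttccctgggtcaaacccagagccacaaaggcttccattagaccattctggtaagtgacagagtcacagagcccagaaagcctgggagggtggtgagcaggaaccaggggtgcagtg
Igll1, chr16:16863936-16864235, minus strand: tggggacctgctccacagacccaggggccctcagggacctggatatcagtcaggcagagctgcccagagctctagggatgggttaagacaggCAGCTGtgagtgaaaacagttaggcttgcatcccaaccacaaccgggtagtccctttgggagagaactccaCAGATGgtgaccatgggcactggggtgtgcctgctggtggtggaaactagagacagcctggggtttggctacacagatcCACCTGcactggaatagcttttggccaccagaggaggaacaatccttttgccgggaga
Cd79a, chr7:24897247-24897546, plus strand: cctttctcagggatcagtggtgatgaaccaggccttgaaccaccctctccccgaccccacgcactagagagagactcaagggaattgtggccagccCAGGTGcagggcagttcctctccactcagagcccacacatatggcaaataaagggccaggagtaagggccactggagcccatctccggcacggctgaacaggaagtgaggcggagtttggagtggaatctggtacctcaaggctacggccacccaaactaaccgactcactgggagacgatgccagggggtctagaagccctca
Dntt, chr19:41029025-41029324, plus strand: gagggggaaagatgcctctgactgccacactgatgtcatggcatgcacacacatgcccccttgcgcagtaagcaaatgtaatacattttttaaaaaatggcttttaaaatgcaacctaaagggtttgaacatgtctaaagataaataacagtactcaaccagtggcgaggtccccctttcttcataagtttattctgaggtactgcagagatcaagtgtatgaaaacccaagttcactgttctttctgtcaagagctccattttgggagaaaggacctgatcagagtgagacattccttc
The E-box letters occurred in 6 of the 7 promoters and in 51.4% of all 32851 promoters of that length, with Dntt the member that had none in this window. The letters CCCNNGGG, a core of EBF sites, occurred in 1 of 7 (Igll1) and in 13.7% of all promoters. TGGGAA, an Ikaros core, occurred in 1 of 7 (Vpreb2) and in 25.6%, and TATAAA in 0 of 7 and in 13.6%. A match is a description of the letters and shows no binding. On chromosome 16 of that build the Igll1 gene (16860671 to 16863985) and the Vpreb1 gene (16868401 to 16869255) lie 4415 bases apart, and Vpreb2 (17979445 to 17981274) lies a further 1110189 bases on. Blnk (40928927 to 40994221) and Dntt (41029275 to 41059525) are neighbours on chromosome 19, with a gap of 35053 bases.

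Of the probe sets for the surrogate light chain, those of Vpreb1, of Vpreb2 with Vpreb1 and Igll1 on 1420176_x_at overlapped between -/- and CD45-positive cells, while the dim Igll1 probe set 1420177_at did not. Vpreb1 (1449869_at) had signals of 9263, 2805 and 138 in -/- samples 4, 5 and 8. In +/- samples 1, 7 and 9 it had 3151, 5060 and 8797, in OGCsort +/+ samples 1, 5 and 6 it had 5512, 8150 and 3012, and in CPGSE samples 4 and 6 it had 1912 and 3575. Sample 4 of -/- was the highest of all 11 and sample 8 the lowest, so every group lay inside the range of the -/- samples. By mean signal the order was 5670 ± 2870 (SD, n = 3) in +/-, 5560 ± 2570 (n = 3) in +/+ of OGCsort, 4070 ± 4690 (n = 3) in -/- and 2740 ± 1180 (n = 2) for CPGSE, and no neighbours in it differed beyond their spread.

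The probe set that names both Vpreb2 and Vpreb1 (1422416_s_at) cannot be credited to either gene. It read 851, 492 and 46 in -/- samples 4, 5 and 8, and between 230 and 1099 in the 8 CD45-positive samples. Again sample 8 was the lowest of the 11, and samples 4 and 5 lay within the CD45-positive range.

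For Igll1, 1420176_x_at gave 6149, 1655 and 42 in the -/- samples and 2320, 4827 and 6346 in the +/- samples. The OGCsort +/+ samples had 3522, 5005 and 3515 and the CPGSE samples 1161 and 3047. Here too -/- sample 4 stood among the highest samples and sample 8 fell under 100. The other Igll1 probe set, 1420177_at, was dim and ran differently. It read 63, 34 and 67 in -/-, 179, 209 and 315 in +/-, 114, 247 and 214 in OGCsort +/+, and 101 and 187 in CPGSE. All -/- samples were under 100 and below every other sample, so the pair of Igll1 probe sets disagree on -/- sample 4, and Pearson's r between them over the 11 samples was 0.50. A probe set whose name ends in _x_at may share probes with other transcripts.

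Vpreb3 encodes a VpreB-like protein found with newly made immunoglobulin chains in B cell precursors, and its gene lies on chromosome 10 (75943024 to 75949657). In +/- samples 1, 7 and 9 its signal (1422921_at) was 1955, 3511 and 6074, and in -/- samples 4, 5 and 8 it was 2254, 743 and 158. The OGCsort +/+ samples were tightly grouped at 930, 917 and 1124, as were the CPGSE samples at 766 and 1037. All 3 +/- samples were above all 5 +/+ samples, while +/- sample 1 lay below -/- sample 4. The mean was 3850 ± 2080 (SD, n = 3) in +/-, 1050 ± 1080 (n = 3) in -/-, 990 ± 116 (n = 3) in +/+ of OGCsort and 901 ± 192 (n = 2) in that of CPGSE, the last 3 within their spread.

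Both signalling chains were lower in -/- cells. Cd79b (chromosome 11, 106311341 to 106314562) gave signals on 1417640_at of 3519, 832 and 161 in -/- samples 4, 5 and 8. It gave 5637, 13215 and 14334 in +/- samples 1, 7 and 9, 6508, 5729 and 7400 in OGCsort +/+ samples 1, 5 and 6, and 5403 and 4295 in CPGSE. Every CD45-positive sample was above every -/- sample. The mean was 11100 ± 4730 (SD, n = 3) in +/-, 6550 ± 836 (n = 3) in +/+ of OGCsort, 4850 ± 784 (n = 2) in that of CPGSE and 1500 ± 1780 (n = 3) in -/-; +/- sample 1 was below all 3 OGCsort +/+ samples.

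Cd79a (chromosome 7, 24897497 to 24901858) had 2369, 754 and 276 on 1418830_at in the -/- samples, and 2359, 7150 and 5221 in the +/- samples. In OGCsort +/+ it had 3780, 2773 and 3546, and in CPGSE 3351 and 2616. The +/+ samples all exceeded -/- sample 4, whereas +/- sample 1 fell just below it. Over the 11 samples the log2 signals of Cd79a and Cd79b had a Pearson r of 0.99, the highest among the 12 probe sets.

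Blk, a Src-family kinase of B cells (chromosome 14, 63372837 to 63417187), read 1903, 690 and 236 on 1422775_at in -/- samples 4, 5 and 8. The +/- samples had 2207, 3026 and 2015, the OGCsort +/+ samples 2216, 1956 and 1932, and the CPGSE samples 1598 and 1522. The OGCsort CD45-positive samples were all above -/- sample 4, by little, and the CPGSE samples were below it. Blnk, the adaptor that links Syk to the enzymes downstream, read 2995, 602 and 223 on 1451780_at in -/-, 845, 3299 and 2984 in +/-, 1725, 1192 and 2108 in OGCsort +/+, and 1365 and 1448 in CPGSE. For Blnk all groups overlapped with -/-, sample 4 of which was the second highest of the 11 samples.

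Dntt differed from the other members in its order among CD45-positive cells. On 1449757_x_at it read 11795, 2720 and 26 in the -/- samples, 1958, 4424 and 12588 in the +/- samples, 19461, 26461 and 14324 in the OGCsort +/+ samples and 9441 and 15087 in CPGSE. On 1450545_a_at it read 1790, 945 and 266 in -/-, 586, 1189 and 2196 in +/-, 2223, 2356 and 2244 in OGCsort +/+, and 1299 and 2285 in CPGSE. With both probe sets the OGCsort +/+ samples were the highest of the OGCsort samples, although on 1450545_a_at +/- sample 9 was only slightly lower. The last probe set, 1420166_at, gave 708, 395 and 119 in -/-, 64, 304 and 623 in +/-, 748, 928 and 601 in OGCsort +/+, and 411 and 510 in CPGSE, and here sample 6 of +/+ overlapped with +/- sample 9. On all 3 probe sets +/- sample 1 was the lowest of its group and sample 9 the highest.

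**Figure D1:**
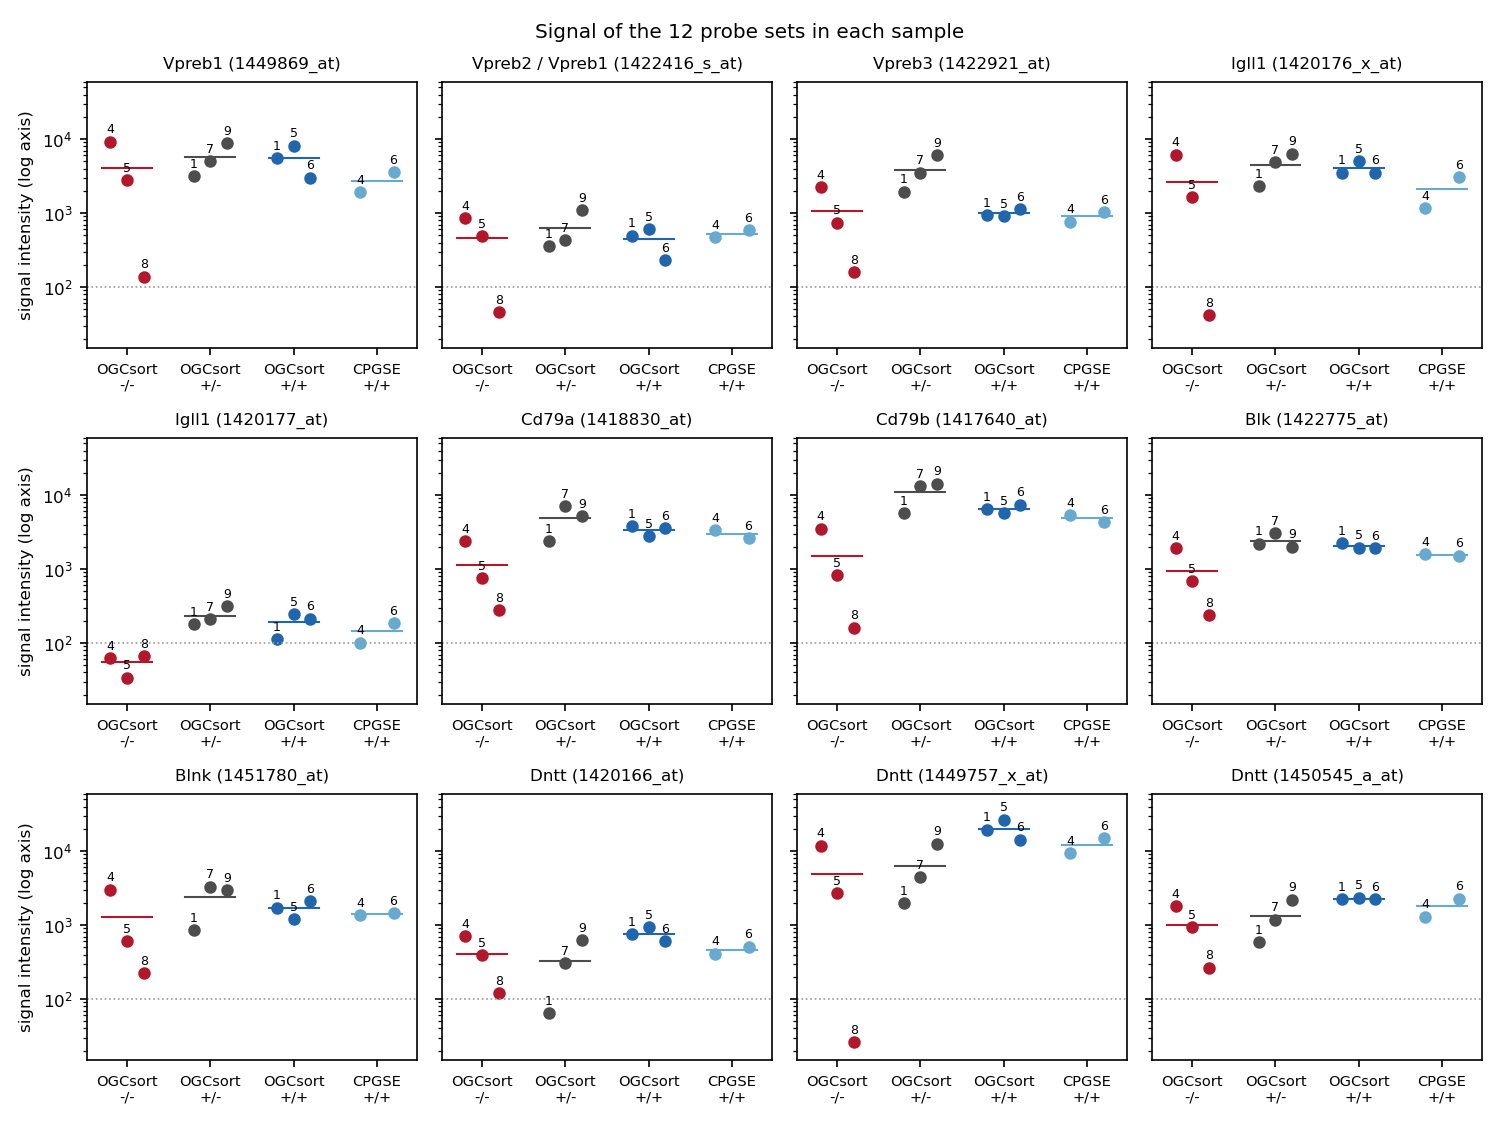
Signal of each of the 12 probe sets (log axis, rescaled MAS5 intensity) in the 11 samples, by group; each point is a sample labelled with its number, the bar is the group mean and the dotted line marks a signal of 100. In 11 of the 12 panels -/- sample 4 is the highest and sample 8 the lowest of its group, and Vpreb3 is highest in +/- while Dntt on 1449757_x_at is highest in OGCsort +/+.

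For 10 of the 12 probe sets the ratio of highest to lowest signal was wider in the -/- group than in either other OGCsort group. The exceptions were Dntt on 1420166_at, with 9.73 in +/- and 5.94 in -/-, and Igll1 on 1420177_at, with 2.17 in +/+ and 1.98 in -/-. The highest -/- signal was 448 times the lowest for Dntt on 1449757_x_at, 148 times for Igll1 on 1420176_x_at, 67.2 times for Vpreb1 and 21.9 times for Cd79b. In the OGCsort +/+ group the same ratios were 1.85, 1.42, 2.71 and 1.29, and in +/- they were 6.43, 2.74, 2.79 and 2.54. The order of samples 4, 5 and 8, from high to low, held for 11 of the 12 probe sets (91.7%) and for 19% of the 19273 probe sets tested on MOE430A; the exception was Igll1 on 1420177_at, which was under 100 in all 3.

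Each -/- sample was set against the median of the 6 CD45-positive OGCsort samples. For the 12 probe sets the median was 103% in sample 4, 36.2% in sample 5 and 10.2% in sample 8, with ranges of 29.7% to 184%, 12% to 106% and 0.196% to 31.9%. Over all 19273 probe sets of the chip the medians were 101%, 106% and 102%. In sample 4, Vpreb1 stood at 175%, Igll1 on 1420176_x_at at 147%, Vpreb3 at 146% and Blnk at 156%, but Cd79a at 64.7% and Cd79b at 50.6%. Ptprc in the same sample stood at 13.2%.

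Most other lists had a lower median in sample 4 than the 103% of the members; the 10 tested genes of V(D)J recombination, at 124%, and the erythroid markers were higher. The 12 genes of the mature B cell surface had a median of 33.5% in sample 4, 13.7% in sample 5 and 5.18% in sample 8, and the 18 tested regulators of the early B lineage had 76.2%, 24.8% and 13.2%. Markers of other white blood cells shared that order in part. Those of plasmacytoid dendritic cells (10 genes) had medians of 28%, 14.5% and 6.3% in samples 4, 5 and 8, those of neutrophils (9 genes) 28%, 5.6% and 2.53%, and those of monocytes and macrophages (8 genes) 18.6%, 6.01% and 3.38%. T cell markers (14 genes) had 23.2%, 24.2% and 16.6%. Markers of natural killer cells (6 genes), at 18%, 52% and 52.9%, and of plasma cells (7 genes), at 40.3%, 88.7% and 82.8%, were instead lowest in sample 4. Except for Mzb1, these markers were dim in -/- cells, at 11 to 301 for natural killer cells and 27 to 585 for plasma cells. Mzb1, of the plasma cell list, read 6896, 2080 and 1238 in samples 4, 5 and 8, the order of most members. The sum of the 9 neutrophil markers was 2096 to 21009 in -/- samples, with Elane under 100 in all 3. It was 101712 to 404858 in +/- and 7722 to 32689 in OGCsort +/+. Ngp alone gave 11368 in -/- sample 4, against 594 and 628 in samples 5 and 8. Some signal of CD45-positive cell types was thus present beside that of the members, for neutrophil genes mainly in sample 4. The sum of the 14 T cell markers was 4345 to 4568 in -/-, with Cd3d, Cd4, Cd8a and Cd8b1 under 100 in all 3 samples and Zap70 giving 2229, 2812 and 3008 of it. The 3′ over 5′ ratio of the chip's Gapdh controls was 11.8, 8.17 and 9.85 in samples 4, 5 and 8, against 9.14 to 24.8 in the other OGCsort samples. That of Actb was 5.91, 6.01 and 8.33, against 4.06 to 12.9. The part of other cells and of RNA quality in this spread was not tested, and in bulk samples fewer cells of a type and less RNA per cell cannot be told apart.

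**Figure D2:**
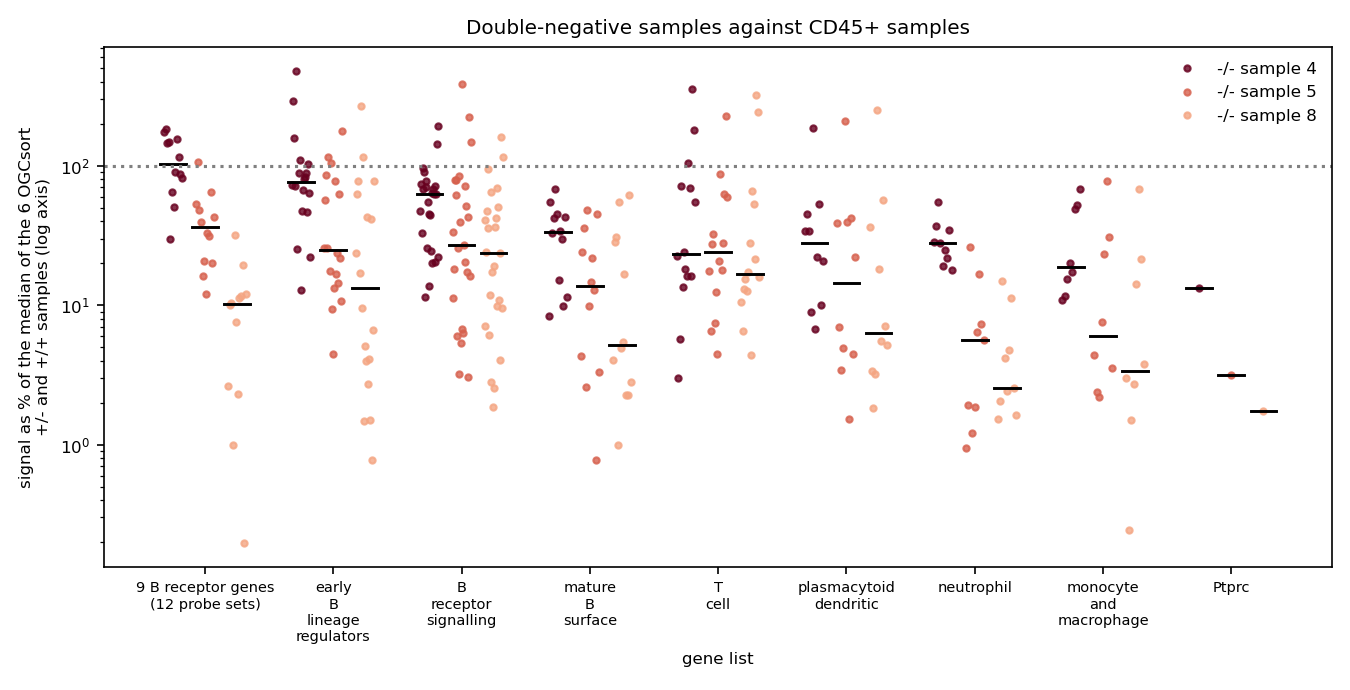
Signal of each gene in -/- samples 4, 5 and 8 as a percentage (log axis) of the median of the 6 CD45-positive OGCsort samples, by gene list; each point is a probe set and the black bar is the median. The 12 member probe sets have medians of 103%, 36.2% and 10.2%, while the genes of the mature B cell surface have 33.5%, 13.7% and 5.18% and Ptprc 13.2%, 3.16% and 1.73%.

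Comparing +/+ with -/- in OGCsort asks what sets CD45-positive, Sca1-positive cells apart from cells with neither antigen. Cd79b rose 7.79-fold in +/+ and Cd79a 4.04-fold, and no member fell. With limma the log2 fold change of Cd79b was 2.96 (SE 0.72, 95% interval 1.42 to 4.50, adjusted p = 0.0112), and that of Cd79a 2.01 (SE 0.56, interval 0.80 to 3.22, adjusted p = 0.0247). These were 2 of the 12 probe sets, beside 16.7% of all 40528 tested, and 9.66% that were higher in +/+. All 12 log2 fold changes were positive, with a median of 1.52 against -0.11 over all probe sets. The 12 are not independent, as several measure the same gene and all share the same -/- samples. Without -/- sample 8, 1422416_s_at had -0.61, Vpreb3 -0.39 and Vpreb1 0.01. In 6 of the 12 every +/+ sample was above every -/- sample, as was the case for 16.5% of all probe sets.

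The other members gave wide intervals. The log2 fold change was 3.98 for Dntt on 1449757_x_at (interval 1.15 to 6.80, adjusted p = 0.0534), 1.51 on 1450545_a_at (0.35 to 2.68, adjusted p = 0.0742) and 1.10 on 1420166_at (-0.26 to 2.47, adjusted p = 0.275). Blk had 1.52 (adjusted p = 0.0508) and the dim Igll1 probe set 1.34 (adjusted p = 0.0529), which is at least 1.63-fold against a floor of 100. Vpreb1 had 1.65 with an interval of -0.48 to 3.78 (adjusted p = 0.297), Igll1 on 1420176_x_at 2.12 (-0.16 to 4.41, adjusted p = 0.205), Blnk 1.08 (adjusted p = 0.332) and Vpreb3 0.55 (-0.84 to 1.94, adjusted p = 0.624). For single probe sets an exact permutation test of 3 against 3 samples cannot give a two-sided p below 0.1. Cd79a, Cd79b, Blk, Igll1 on 1420177_at and Dntt on 1449757_x_at and 1450545_a_at reached it. In these every +/+ sample was above every -/- sample, as for 16.5% of all probe sets.

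The number of members that passed moved with single libraries and with the settings of the fit. Without -/- sample 4, 8 of the 12 were higher in +/+, with log2 fold changes of 4.00 for Cd79b, 5.60 for Dntt on 1449757_x_at, 3.50 for Igll1 on 1420176_x_at, 2.90 for Vpreb1 and 2.05 for Blnk. Over all probe sets the calls then numbered 7224, against 6784 with every sample. Without -/- sample 5, -/- sample 8 or +/+ sample 6 only Cd79b passed, and without +/+ sample 1 Cd79a had an adjusted p of 0.0807. Calls over all probe sets fell too, to 4836, 5268, 4682 and 5263 in that order. Between the 2 +/+ and 3 -/- samples of the shared wash run the log2 differences were 2.87 for Cd79b and 1.97 for Cd79a; with the wash run as a block Cd79b kept its call (adjusted p = 0.0427) and Cd79a lost it (adjusted p = 0.0729). With a robust variance estimate neither passed, both at an adjusted p of 0.0984. Without a variance trend Cd79a lost its call (adjusted p = 0.0724) and Igll1 on 1420177_at gained one (adjusted p = 0.032).

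The comparison of +/- with -/- shares the -/- samples with the one above, so the counts are not independent. In it Cd79b rose 12.2-fold, Cd79a 5.37-fold, Vpreb3 5.04-fold and Blk 3.35-fold in +/-, and Igll1 on 1420177_at rose at least 1.97-fold. The log2 fold changes by limma were 3.61 for Cd79b (SE 0.72, adjusted p = 0.00371), 2.43 for Cd79a (SE 0.56, adjusted p = 0.01), 2.33 for Vpreb3 (SE 0.65, adjusted p = 0.0269), 1.74 for Blk (SE 0.50, adjusted p = 0.0308) and 1.61 for Igll1 (SE 0.44, adjusted p = 0.0256). The 5 calls among 12 stand beside 13.7% of all probe sets called, and 7.85% called higher. The samples did not overlap for 3 of them, Cd79b, Blk and Igll1 on 1420177_at, as for 14.4% of all probe sets. For Cd79a and Vpreb3, -/- sample 4 was above +/- sample 1.

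The remaining 7 probe sets did not pass. Vpreb1 had a log2 fold change of 1.67 (interval -0.46 to 3.79), Igll1 on 1420176_x_at 2.19 (-0.10 to 4.48) and Blnk 1.39 (-0.10 to 2.88). The 3 Dntt probe sets had 1.96, 0.56 and -0.39, with intervals that all included 0. The median over the 12 was 1.71, against -0.05 over all probe sets.

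These calls too moved with single libraries. Without -/- sample 4 there were 9, which added Vpreb1 (2.91), Igll1 on 1420176_x_at (3.57), Blnk (2.36) and Dntt on 1449757_x_at (3.59). There were 2 without -/- sample 5, 3 without -/- sample 8, 1 (Cd79b) without +/- sample 7 and 2 without +/- sample 9. Calls over all probe sets moved too, from 1765 to 6223 over all alternatives run, against 5552 with every sample. The shifts need not be particular to the members. On MOE430A, the chip of all members, no wash run held both groups. With the wash run as a block, which then rests on the +/+ samples as the link, the values were 3.33 for Cd79b, 2.30 for Cd79a and 2.06 for Vpreb3, and 0 of the 12 passed, with adjusted p-values from 0.224 to 0.461 for the 5 that had.

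**Figure D3:**
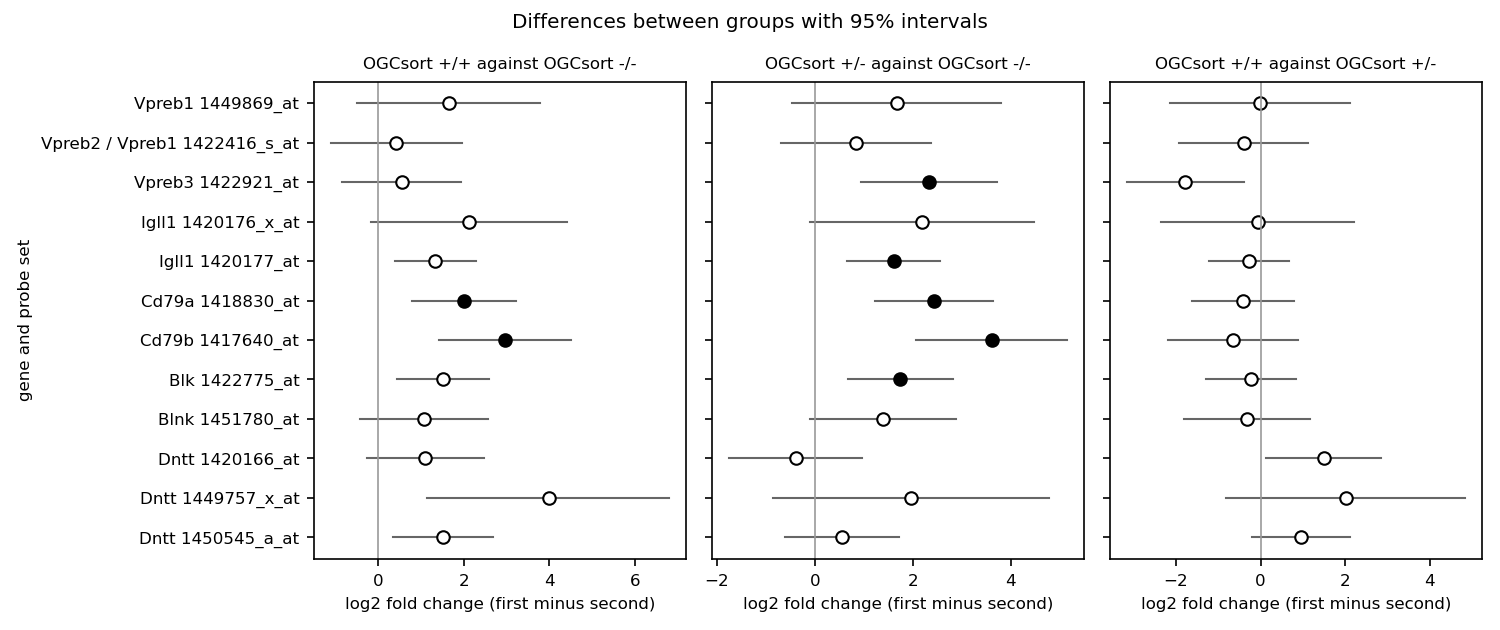
Log2 fold change (first group minus second, limma) of the 12 probe sets with its 95% interval in 3 comparisons; filled points passed an adjusted p of 0.05. In the first panel 2 points are filled, in the second 5 and in the third 0, where Vpreb3 lies to the left at -1.78 and the 3 Dntt probe sets to the right at 0.96 to 2.02.

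Between +/+ and +/- cells of OGCsort, which differ in the Sca1 gate, 0 of the 12 probe sets passed with limma, beside 0.101% of all probe sets (41 of 40528); 2 had an unadjusted p under 0.05, beside 2686 of all 40528. Those were Vpreb3, with a log2 fold change of -1.78 (interval -3.17 to -0.39, unadjusted p = 0.0156, adjusted p = 0.561), and Dntt on 1420166_at, with 1.49 (0.13 to 2.86, unadjusted p = 0.034, adjusted p = 0.69). The other Dntt probe sets had 2.02 (-0.81 to 4.84, adjusted p = 0.887) and 0.96 (-0.21 to 2.12, adjusted p = 0.839), and in both all +/+ samples were above all +/- samples, as for 6.47% of all probe sets. Vpreb3 was lower in every +/+ sample than in every +/- sample, as were 6.84% of all. The intervals of Vpreb1 (-2.14 to 2.11) and Igll1 on 1420176_x_at (-2.35 to 2.22) were too wide to show whether the surrogate light chain differed. For Cd79a the value was -0.41 (-1.62 to 0.80), for Cd79b -0.65 (-2.19 to 0.89) and for Blk -0.23 (-1.29 to 0.84).

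On MOE430A only +/+ sample 6 shared a wash run with the +/- samples. Within that run it lay below their mean by a log2 difference of -1.60 for Vpreb3 and above it by 1.19, 1.57 and 0.94 for the 3 Dntt probe sets. The same samples differed in other cell markers: the neutrophil sum was 101712 to 404858 in +/- and 7722 to 32689 in OGCsort +/+, and the sum of 10 plasmacytoid dendritic markers, of which 0 were under 100 in every +/+ sample and 1 (Klk1) in every +/- sample, was 6532 to 12963 against 19301 to 45234. Whether these cells bear on the Dntt and Vpreb3 values was not tested. In +/- sample 1, the lowest of its group for all members but Blk, the neutrophil gene Camp read 72209, against 14626 and 7653 in samples 7 and 9.

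The CPGSE samples give a second set of +/+ cells. Against OGCsort +/+, 0 of the 12 probe sets passed with limma, as did 0% of all 40528, of which 2429 had an unadjusted p under 0.05; 0 of the 12 did. The log2 fold changes ran from -0.32 to 1.06 with a median of 0.38, and in 4 of the 12, Igll1 on 1420176_x_at, Cd79b, Blk and Dntt on 1420166_at, all OGCsort samples were above both CPGSE samples, as for 15.3% of all probe sets. Against +/- cells of OGCsort, again 0 of the 12 passed, beside 0.316% of all, and 1 (Vpreb3) had an unadjusted p under 0.05, beside 4281 of all 40528. Here Vpreb3, Cd79b and Blk were lower in both CPGSE samples than in all +/- samples, as were 17.5% of all probe sets. The CPGSE arrays had a wash run of their own, so for these comparisons set and run cannot be told apart.

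The members fell into groups by their course over the samples. Pearson's r of log2 signal over the 11 samples was 0.98 between Vpreb1 and Igll1 on 1420176_x_at, whose genes are neighbours, 0.96 between Cd79b and Blk and 0.95 between Cd79a and Blk. It was 0.96 between Dntt on 1449757_x_at and on 1450545_a_at. The lowest values involved the dim Igll1 probe set and Dntt on 1420166_at, with 0.17 between these 2 and 0.24 between Vpreb3 and Dntt on 1420166_at. These values describe 11 samples that share 4 groups and the wide -/- spread.

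**Figure D4:**
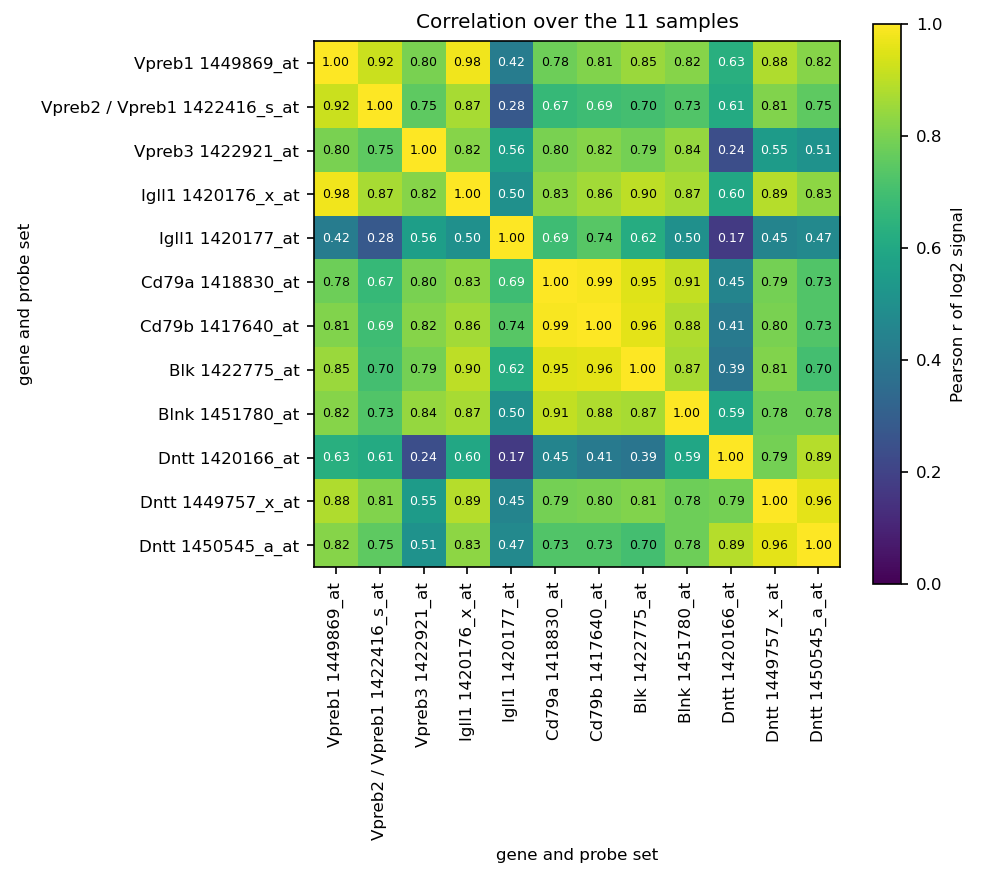
Pearson's r of log2 signal between each pair of the 12 probe sets over the 11 samples, with the colour scale from 0 to 1. Cd79a, Cd79b and Blk form a block at 0.95 to 0.99, Vpreb1 and Igll1 on 1420176_x_at reach 0.98, and the lowest values involve the dim Igll1 probe set and Dntt on 1420166_at.

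Among all other genes the course most like that of Cd79a over the 11 samples was that of Cytip, an adaptor of blood cell adhesion, with a Pearson r of 0.978, then Dicer1 (0.973), the sialyltransferase gene St6gal1 (0.97), Foxp1 (0.97), Pou2af1 (0.969), Map4k1 (0.968), Cnp (0.968) and Spib (0.967). Foxp1, Pou2af1 and Spib encode transcription regulators of the B lineage. For Igll1, the rule took 1420177_at, and the genes most like it were Atad3a (0.936), Psd3 (0.933) and Zdhhc4 (0.929). With 1420176_x_at as the reference, a choice made after seeing the data, they were Tcof1 (0.96), Myb (0.946), Pagr1a (0.938), Cdkal1 (0.938) and Ebf1 (0.936). Ebf1, a factor that directs B cell fate, was measured there on a bright probe set that read 1996, 364 and 3 in -/- samples 4, 5 and 8.

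Genes of the wider pathway were taken from lists that hold none of the members. Of 25 tested genes of B receptor signalling, 15 rose and 1 (Itpr2) fell in +/+ against -/-, with a median log2 fold change of 1.35, and 12 rose and 0 fell in +/-, with a median of 1.46. Of all probe sets, 9.66% rose in +/+ and 7.85% in +/- against -/-. Cd22, an inhibitory co-receptor, rose 13.3-fold in +/+ and 8.97-fold in +/- (adjusted p = 1.74e-05 and 9.08e-05). Syk, the kinase that docks on the phosphorylated Ig-alpha and Ig-beta tails, rose 4.78-fold and 9.19-fold (adjusted p = 0.00458 and 0.000468). Plcg2, the phospholipase recruited through Blnk, rose 3.69-fold and 4.63-fold (adjusted p = 9.15e-05 and 3.2e-05), and Btk, the kinase that activates it, 2-fold and 2.11-fold (adjusted p = 0.0267 and 0.0207). Bank1, a scaffold protein of B cells, rose 9.01-fold and 3.77-fold (adjusted p = 3.1e-05 and 0.00236). Many of these genes are also used by other white blood cells.

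Of 18 tested regulators of the early B lineage, 7 rose in +/+ against -/- and 12 in +/-, and 0 fell in either. The shares of all probe sets that rose were 9.66% and 7.85%. Il7r, the receptor chain for interleukin-7, rose 5.22-fold and 6.30-fold, Ikzf3 6.08-fold and 4.94-fold, and Spib 5.89-fold and 7.65-fold. Ebf1, here on a dimmer probe set than the one named above (338, 120 and 111 in -/-), rose 3.35-fold in +/- (adjusted p = 0.00987), with a log2 fold change of 1.00 in +/+ (adjusted p = 0.111). Pax5, which fixes B cell identity, was dim on its probe set, at 32 to 285 over the 11 samples, with log2 fold changes of -0.12 and -0.43 that did not pass. Irf8, which is also used by myeloid and dendritic cells, rose 26.5-fold in +/+ and 8.28-fold in +/-.

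Of 10 tested genes of V(D)J recombination and end joining, 1 rose and 1 fell in +/+ against -/-, and 1 rose in +/-. These rises are near the shares of all probe sets that rose, 9.66% in +/+ and 7.85% in +/-. The ligase gene Lig4 rose at least 2.08-fold and at least 7.77-fold (adjusted p = 0.0102 and 0.000125), and Hmgb2 fell 3.37-fold in +/+ (adjusted p = 0.0105). Rag1, a subunit of the recombinase, was, like Vpreb3, highest in +/-. It read 1736, 674 and 63 in -/- samples 4, 5 and 8, 1421, 2418 and 3201 in +/-, 352, 594 and 543 in OGCsort +/+, and 412 and 607 in CPGSE. All +/- samples were above all +/+ samples, with a log2 fold change of -2.13 in OGCsort (adjusted p = 0.5), which did not pass. Polm, a polymerase related to Dntt, read 556, 1213 and 1647 in +/- and 42, 276 and 327 in OGCsort +/+, with -2.41 (adjusted p = 0.206).

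Of 12 genes of the mature B cell surface, 11 rose in +/+ and 8 in +/- against -/-, beside 9.66% and 7.85% of all probe sets. Ms4a1, which encodes CD20, rose 15.9-fold and 15.3-fold (adjusted p = 8.56e-06 and 1.2e-05), with signals of 578, 297 and 279 in -/- samples 4, 5 and 8 and 3041 to 8955 in the CD45-positive samples. Among 3 tested immunoglobulin chain genes only Igha passed, 27.3-fold higher in +/+ than in -/- (adjusted p = 0.0107), and its signal in +/+ sample 1 was 46404 against 945 and 862 in samples 5 and 6. In these 5 lists 0 genes passed between +/+ and +/- of OGCsort or in either comparison with CPGSE. Of all probe sets, 0.101% passed between +/+ and +/-, 0% between OGCsort +/+ and CPGSE, and 0.316% between CPGSE and +/-.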

How the data were processed

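RNA of 11 sorted bone marrow samples was measured on 2 Affymetrix chips, MOE430A and MOE430B, with 1 array of each per sample. The authors deposited signal intensity on a linear scale for each probe set, from MAS5 per the submitters' processing notes; its version is not stated there. Each array had been scaled to a trimmed mean of 1500, tested on the values. Here control probe sets were left out, arrays were rescaled to a trimmed mean of 500 (2% removed at each end) and values were taken as log2(signal + 32), so that fold changes of dim genes are understated. Probe sets over 100 on at least 2 arrays were kept, 19273 on MOE430A and 21255 on MOE430B, with the 100 shared ones taken from MOE430A.

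Groups came from the sample labels. The tests used limma 3.58.1 in R 4.3.3 (lmFit, eBayes with a trend), each chip by itself, with Benjamini-Hochberg adjustment over all 40528 probe sets and a threshold of 0.05. The 9 OGCsort samples were fitted for comparisons within OGCsort and all 11 for those with CPGSE. Folds come from the log2 fold change, and where no array of a group reached 100 the fold was taken against 100. Wash runs were inferred from gaps of over 60 minutes between recorded hybridization times. A gene of a list was represented by 1 probe set: MOE430A before MOE430B, then a name ending in plain _at, then the highest mean. All 12 member probe sets are named, and from each pathway list up to 4 genes of a comparison with the smallest adjusted p; Syk, Btk, Itpr2, Ebf1, Pax5 and the markers of other cell types were named outside this rule, after their values were seen. The genes most like Cd79a and Igll1 were ranked by Pearson's r. The members and lists were chosen with earlier results of these data known. The procedure was tested on simulated data. The number of arrays limits the precision. Alternatives covered the pseudocount, filter, normalization, variance model, array weights, adjustment, blocks, samples in the fit and leaving out each sample.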

Additional observations from a re-analysis of the deposited data

How the results depend on the processing

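Of the 12 probe sets, 2 passed in OGCsort +/+ against -/-. The number was 4 with a pseudocount of 64, 0 with robust variance, 6 with array weights, 5 with adjustment within each chip, 6 with the sort number as a random replicate block, 1 with the wash run as a block, 5 with all 11 samples in the fit and 1 with CPGSE standing in for OGCsort +/+. Calls over all probe sets were, in that order, 6967, 6874, 7959, 6815, 8295, 5529, 7473 and 6925, against 6784 as reported. The labels share sort number 5 between -/- and +/+ and 1 between +/+ and +/-, without saying whether it marks a common source. That block added Blk (adjusted p = 0.0269), Igll1 on 1420177_at (0.0183) and Dntt on 1449757_x_at (0.0278) and 1450545_a_at (0.0359). Leaving out each sample gave 1 to 8. In +/- against -/- 5 passed; 3 did without a variance trend, 1 with robust variance, 0 with the wash run as a block, 2 with only these groups in the fit (added after seeing the data) and 1 to 9 with each sample left out. In +/+ against +/- 0 passed, and 1 (Vpreb3, adjusted p = 0.0342) with only these groups in the fit. In the comparisons with CPGSE 0 passed under every alternative run; the wash run block could not be fitted there.

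Over all probe sets the count for +/- against -/- was 1765 with the wash run as a block, against 5552. Over all alternatives the count ranged from 4667 to 8295 for OGCsort +/+ against -/- (6784 as reported) and from 1765 to 6223 for +/- against -/- (5552). It ranged from 7 to 189 for +/+ against +/- (41), from 3 to 594 for CPGSE against +/- (128) and from 0 to 115 for OGCsort +/+ against CPGSE (0).

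Every sign change was in a value that had not passed, and the cause was not tested. Dntt on 1420166_at in +/- against -/- became 0.06 with the wash run as a block. In +/+ against +/-, Vpreb1 became 0.14 with array weights and 0.05 with the sort number as a random replicate block, and Blnk 0.05 with the wash run as a block. With each sample left out, log2 fold changes crossed 0 in +/+ against -/- for 1422416_s_at (-0.61 to 1.14) and Vpreb3 (-0.39 to 1.41). In +/- against -/- they did for 1422416_s_at (-0.21 to 1.53) and Dntt on 1420166_at (-1.02 to 0.37), 1449757_x_at (-0.24 to 3.59) and 1450545_a_at (-0.17 to 1.14). In +/+ against +/- they did for Vpreb1 (-0.38 to 0.36), Blnk (-0.93 to 0.03), 1422416_s_at (-0.70 to 0.07) and Igll1 on 1420176_x_at (-0.48 to 0.24) and 1420177_at (-0.46 to 0.01).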
